A study of Mus musculus with 15 samples.

Results

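Transcripts of 10 receptor genes typical of tissue-resident macrophages were followed in the mouse pancreas: P2ry13, P2ry12, P2ry14, Gpr34, Cx3cr1, Trem2, Lyve1, Timd4, Folr2 and Mertk. They were listed genes, 10 of the 15175 genes in the MC table and of the 49585 genes in each of the HC and KMC tables, and all 10 had counts in all 15 libraries. The list was chosen because P2ry13 and Gpr34 had differed between mice expressing M46 and mice expressing HPK1, so the values of these receptors in the MC and HC libraries, and their contrast between M46 and HPK1, are given as a description with no test. The other 8 receptors were tested in the MC and HC comparisons, and all 10 in the KMC comparison, whose libraries played no part in the choice. Several of the 8 followed P2ry13 and Gpr34 across the libraries (P2ry12 with Pearson's r of 0.939 and 0.946). Their tests and counts in MC and HC are therefore not independent of the choice.

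RNA-Seq was performed on pancreas of C57BL/6 mice, and each library was made from RNA pooled from 3 mice. HPK1, encoded by Map4k1, is a kinase best known from hematopoietic cells, and M46 is its kinase-dead mutant. Transgenes were switched on in acinar cells by a tamoxifen-inducible Cre under an elastase I promoter (Bac-cre, B in the labels), so macrophages were not the cells meant to carry them, and the mice kept their own Map4k1. The MC group (HPK1-M46 transgenic, age 2 months, n = 3) and its Cre-only control (B, 2 months, n = 3) had received cerulein, a secretagogue that induces pancreatitis, as had the group labelled HC (HPK1/B, 4 months, n = 3) and its wild-type control (4 months, n = 2). KMC mice (9 months, n = 2) carried M46 and B, KC mice (15 months, n = 2) carried B without M46, and both groups shared a further allele, so age differed with genotype. The labels give the tissue of KMC and KC as pancreas, whereas the study describes these samples as pancreatic ductal adenocarcinoma. Nothing in the labels says that libraries of a group came from separate cages or days, and p-values measure the spread between these pools.

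Macrophages that live in tissues sense damage and dying cells through such receptors. P2RY12 and P2RY13 bind ADP, P2RY14 binds UDP-sugars, and GPR34 binds lysophosphatidylserine, a lipid released by activated or dying cells. CX3CR1 is the receptor of the chemokine fractalkine. TREM2 recognizes lipids and apolipoproteins and signals through TYROBP, while TIM-4, encoded by Timd4, and MERTK take part in the clearance of apoptotic cells. LYVE1 binds hyaluronan and FOLR2 binds folate, and both mark macrophages that lie along vessels or in tissue, although LYVE1 is also made by lymphatic endothelium and P2RY12 by platelets.

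P2ry14, P2ry13 and P2ry12 lie side by side on chromosome 3 of GRCm38, at chr3:59113855-59153618, chr3:59207892-59210882 and chr3:59216272-59262871, on the minus strand inside Med12l, which is read from the opposite strand. Gpr34 lies at chrX:13632089-13640858, inside Cask, again on the opposite strand. The coding sequences of the neighbours were related: over the aligned residues P2RY12 and P2RY13 were 47.4% identical, P2RY12 and P2RY14 41.9%, and P2RY13 and P2RY14 39.3%, against 30.2% between P2RY12 and GPR34 and 24.0% between P2RY12 and CX3CR1. Stranded library kits are named in the labels of the HC and KMC tables and in the study's methods, but whether the counting used strand is not given in the sources used here, and without strand, reads of these receptors and of their host genes cannot be told apart. Promoter windows of the 3 neighbours are shown because P2ry13 and P2ry12 were higher in the MC and KMC libraries than in their controls while P2ry14, in the same locus, was lower on average. In KMC the lower P2ry14 level depends on the scaling, as given below. They are RefSeq sequences of GRCm38.p6, 250 bases before to 50 after the start, and capitals mark GAGGAA (PU.1-type, the short core bound by a macrophage factor) or TGACTCA (AP-1-type), searched on both strands.
P2ry13, chr3:59210833-59211132 (minus strand): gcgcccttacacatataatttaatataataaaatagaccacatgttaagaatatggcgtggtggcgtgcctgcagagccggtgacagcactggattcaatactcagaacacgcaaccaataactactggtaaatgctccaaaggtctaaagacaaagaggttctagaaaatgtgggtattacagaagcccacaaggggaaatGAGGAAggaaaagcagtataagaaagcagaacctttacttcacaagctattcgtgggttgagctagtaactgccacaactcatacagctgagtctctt
P2ry12, chr3:59262936-59263235 (minus strand): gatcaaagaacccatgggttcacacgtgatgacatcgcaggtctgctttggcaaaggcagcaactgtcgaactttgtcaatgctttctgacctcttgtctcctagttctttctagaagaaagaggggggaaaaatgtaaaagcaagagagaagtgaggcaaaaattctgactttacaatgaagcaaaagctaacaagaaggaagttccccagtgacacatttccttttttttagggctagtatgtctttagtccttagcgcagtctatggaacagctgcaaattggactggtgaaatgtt
P2ry14, chr3:59153443-59153742 (minus strand): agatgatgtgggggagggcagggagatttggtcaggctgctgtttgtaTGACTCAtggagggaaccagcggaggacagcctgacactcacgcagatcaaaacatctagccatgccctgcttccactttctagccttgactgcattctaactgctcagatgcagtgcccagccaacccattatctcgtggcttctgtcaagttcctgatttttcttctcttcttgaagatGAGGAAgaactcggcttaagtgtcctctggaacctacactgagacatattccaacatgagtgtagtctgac
The P2ry13 window held GAGGAA, the P2ry12 window held neither motif, and the P2ry14 window, the most upstream of its 4, held both. Windows were found for 8 of the 10 receptors (not for Gpr34 and Lyve1), 12 windows in all. GAGGAA was present in 6 of the 12, which belonged to P2ry13, Trem2 and P2ry14 (4 windows, of which 2 overlap and share the match), against 28.3% of 32851 windows of the same length. TGACTCA was present in 2 of the 12, against 5.2%. These matches are a description of the letters and not of binding.

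Libraries held 29766575 to 38745907 counts. The acinar gene list took 41.8% to 61.4% of counts in the MC experiment, 6.29% to 9.84% in the HC experiment, 28.6% and 54.5% in KMC and 65.9% and 76.9% in KC. Pancreatic tissue was thus recognizable in every library, and because the tables were made and scaled separately, levels in different experiments are given side by side only. Map4k1 was higher in the MC libraries (6.79 to 8.31 TMM-scaled CPM, read counts scaled to library size) than in their controls (2.34 to 4.14), but lower in the libraries labelled HC (5.05 to 7.92) than in their controls (11.5 and 15.4), which goes against the HC label. Whether these labels were exchanged, or transgene reads are not counted, was not tested, and an exchange would turn the sign of every HC value below. Ptprc, the pan-leukocyte gene CD45, lay on the same side as Map4k1 in both experiments. Xist and Ddx3y showed that HC replicate 3 held male tissue while the other HC and control libraries of that table did not, that both KC libraries were male and that both KMC libraries were female; these genes are not in the MC table, so sex was not checked there. Sex, age and genotype cannot be told apart in the KMC comparison, and Gpr34 is X-linked.

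In the MC pancreas the ADP receptor P2ry13 and the lysophosphatidylserine receptor Gpr34 were well above their control level, with means of 3.47 ± 0.17 against 0.987 ± 0.005 CPM for P2ry13 and 1.83 ± 0.24 against 0.480 ± 0.057 for Gpr34 (SD, n = 3). P2ry13 was at 3.31, 3.43 and 3.65 CPM in the MC libraries and 0.991, 0.982 and 0.988 in the controls, a log2 fold change of 1.81 ± 0.21 (SE). Gpr34 was at 1.99, 1.93 and 1.56 CPM against 0.529, 0.417 and 0.494, a log2 fold change of 1.92 ± 0.29. For both receptors the libraries within a group lay close together and the groups were far apart, but the counts were low, with 22 to 33 P2ry13 counts and 11 to 16 Gpr34 counts per control library. These values chose the list, and no test is attached to them.

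**Figure D1:**
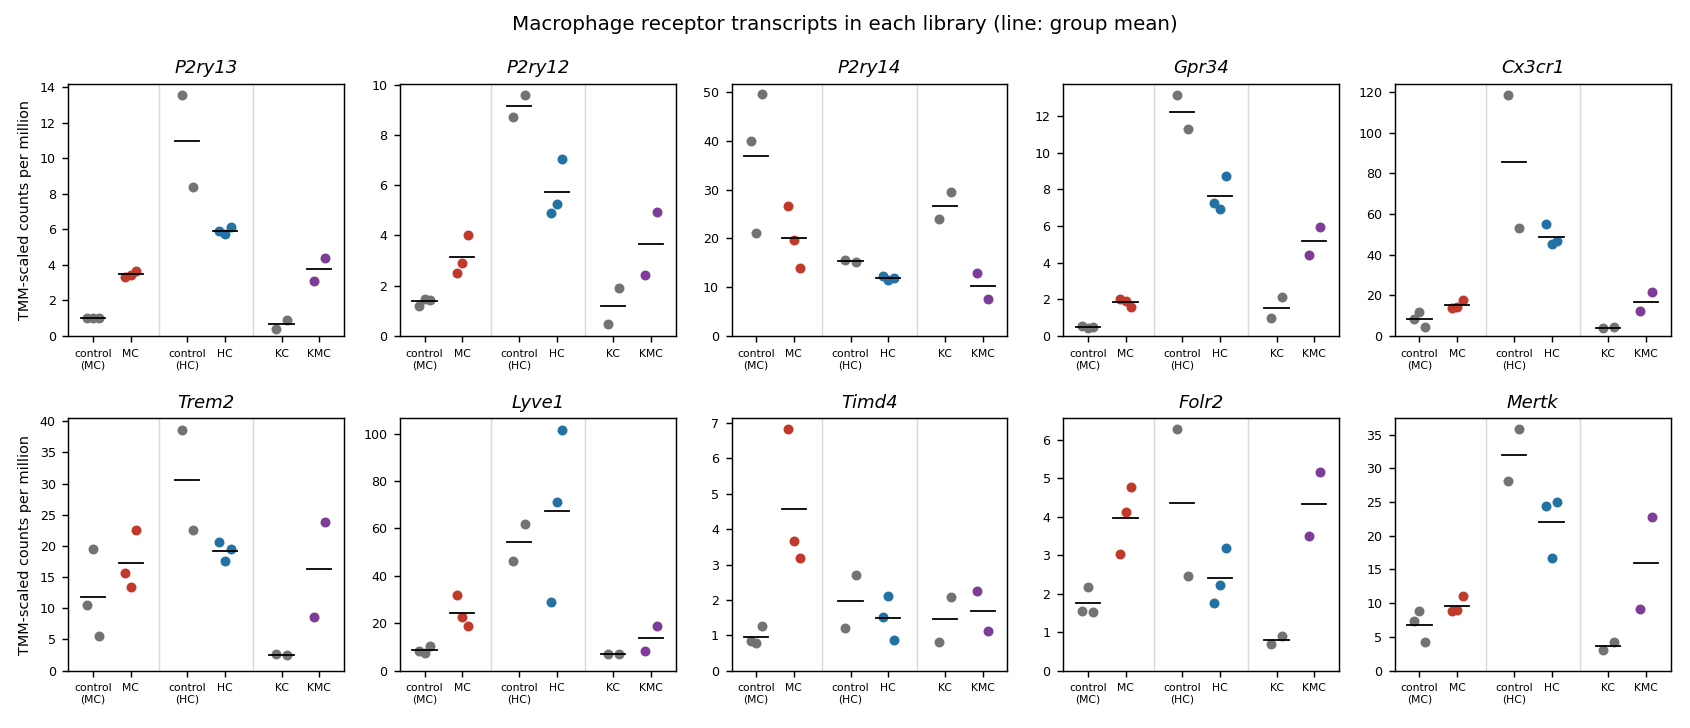
Each panel plots 1 receptor in TMM-scaled CPM (linear axis from 0, own scale per panel) for the 15 libraries in 6 groups, with points for libraries and lines for group means. P2ry13 and Gpr34 were higher in MC than in control, lower in HC than in control and higher in KMC than in KC, and P2ry14 was lower in KMC than in KC.

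Among the other 8 receptors in MC, 7 were higher and 1 lower than control, with a median log2 fold change of 1.03, beside −0.02 over the 13902 genes tested. No receptor passed the edgeR test at an adjusted p of 0.05 with a log2 fold change of at least 1, and neither did any other gene (0% called). At an unadjusted p under 0.05, 5 of the 8 were higher and 1 was lower, where 9.20% of all genes were higher and 5.45% lower. Of the 8 receptors, 6 had groups that did not overlap, all of them higher, against 10.9% of all genes higher and 9.89% lower. DESeq2 called 4 of the 8, P2ry12, Lyve1, Timd4 and Folr2, at a background of 3.26%.

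P2ry12, the second ADP receptor, was at 2.5, 2.91 and 4.02 CPM in MC and 1.19, 1.49 and 1.44 in control. The log2 fold change was 1.2 ± 0.26 (edgeR adjusted p = 0.123, DESeq2 adjusted p = 0.00712), with no overlap. P2ry14, the UDP-sugar receptor beside it, was at 26.6, 19.6 and 13.9 CPM in MC and 40.1, 21.0 and 49.6 in control. Its groups overlapped through control replicate 2 (log2 fold change −0.88 ± 0.34, edgeR adjusted p = 0.306). Cx3cr1 was at 13.7, 14.4 and 17.7 CPM against 8.23, 12 and 4.49 (0.88 ± 0.32, edgeR adjusted p = 0.282), higher in every MC library than in any control.

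The receptors of dying cells did not move alike. Timd4, which binds phosphatidylserine, was at 6.83, 3.67 and 3.18 CPM in MC and 0.826, 0.774 and 1.26 in control, the largest log2 fold change of the 10 receptors (2.27 ± 0.38, edgeR adjusted p = 0.0830, DESeq2 adjusted p = 6e-06). All MC libraries were above all controls, and replicate 1 stood highest. Mertk was at 8.89, 8.95 and 11 CPM against 7.34, 8.87 and 4.22, groups that only just separated (0.49 ± 0.27, edgeR adjusted p = 0.407). Trem2 was at 15.7, 13.4 and 22.5 CPM against 10.5, 19.6 and 5.53, and the groups overlapped through control replicate 2 (0.53 ± 0.42, edgeR adjusted p = 0.540).

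Lyve1, the hyaluronan receptor, was at 32, 22.6 and 18.8 CPM in MC and 8.49, 7.41 and 10.4 in control. The log2 fold change was 1.48 ± 0.23 (edgeR adjusted p = 0.0796, DESeq2 adjusted p = 2e-06). The lymphatic endothelial markers overlapped between the groups, with a summed level of 37.1 to 46.9 CPM in MC and 20.4 to 46.2 in control, and all 6 were higher on average with none called by edgeR or DESeq2. Folr2, the folate receptor, was at 3.04, 4.14 and 4.76 CPM against 1.55, 2.17 and 1.53 (1.18 ± 0.26, edgeR adjusted p = 0.125), without overlap.

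Control replicate 2 stood nearest to the MC libraries. It had 1666 CPM of summed pan-macrophage genes against 866 and 640 in the other controls and 1356 to 2068 in MC. Without it the edgeR test called 5 of the 8 receptors (Cx3cr1, Lyve1, Timd4 and Folr2 higher, P2ry14 lower) and 718 genes in all, and without MC replicate 1 it called Lyve1 and 171 genes. B cell markers were higher in MC with a wide spread, 3.09 to 73.0 CPM summed against 1.3 to 2.28, with MC replicate 1 at the top. Dendritic cell markers (23.4 to 28.2 CPM against 14.2 to 17.1) and T and NK cell markers (8.44 to 12.9 against 2.07 to 3.01) also did not overlap, and neither did adipocyte markers, at 138, 83.1 and 55.7 CPM summed in the MC libraries against 38.2 to 43.7 (6 of 6 tested higher, 0 called by edgeR and 4 by DESeq2). MC replicate 1 thus had the highest B cell and adipocyte sums as well as the highest Lyve1 and Timd4. DESeq2 called 6 of 9 tested T and NK cell genes, 5 of 5 B cell genes and 3 of 9 dendritic cell genes higher, at a background of 3.26%. The part of these cells in the receptor values was not tested, and in bulk tissue fewer cells of a type and less RNA per cell cannot be told apart.

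In the libraries labelled HC, 9 of the 10 receptors were on average lower than in the wild-type controls. P2ry13 was at 5.90, 5.72 and 6.15 CPM in HC and 13.6 and 8.42 in control (log2 fold change −0.89 ± 0.23). Gpr34 was at 7.26, 6.92 and 8.75 CPM against 13.1 and 11.3 (−0.68 ± 0.18). Neither receptor overlapped between the groups, and both values are a description. Markers of other leukocytes were lower as well. Neutrophil markers summed to 51.2 to 65.1 CPM in HC against 87.8 and 117 in control (8 of 8 tested lower, 7 of them without overlap, 0 called by edgeR), and B cell markers to 14.6 to 16.6 against 24.9 and 43.7 (8 of 8 lower, with Cd79a called by edgeR). Their part in the receptor values was not tested.

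Over the other 8 receptors the median log2 fold change in HC was −0.60, beside 0.00 over the 18407 genes tested, with 7 lower and 1 higher. No receptor was called, at a background of 0.565%. At an unadjusted p under 0.05 there were 5 lower and 0 higher, where 7.47% of all genes were lower and 8.39% higher. Of the 8 receptors, 4 were lower without overlap and 0 higher, against 16.1% and 17.5% of all genes. DESeq2 called 0 of the 8, at a background of 2.54%.

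The receptors lower without overlap were P2ry12, P2ry14, Trem2 and Mertk. P2ry12 was at 4.90, 5.24 and 7.04 CPM against 8.71 and 9.59 (−0.68 ± 0.22, edgeR adjusted p = 0.217). P2ry14 was at 12.2, 11.5 and 11.9 CPM against 15.5 and 15.2 (−0.37 ± 0.13, edgeR adjusted p = 0.243), and thus lay on the same side as its neighbours here. Trem2 was at 20.6, 17.6 and 19.5 CPM against 38.6 and 22.6, and Mertk at 24.4, 16.7 and 25.0 against 28.1 and 35.8. Their log2 fold changes were −0.67 ± 0.23 and −0.53 ± 0.21 (edgeR adjusted p = 0.236 and 0.289).

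Cx3cr1, Folr2, Timd4 and Lyve1 overlapped between HC and control. Cx3cr1 was at 55.0, 45.1 and 46.7 CPM in HC, close to control replicate 2 at 53.1 but far from control replicate 1 at 118. Folr2 had the same form, at 1.77, 2.22 and 3.20 CPM against 6.28 and 2.46. Lyve1 spread most, at 29.0, 71.3 and 102 CPM against 46.3 and 62.0 (0.31 ± 0.47, edgeR adjusted p = 0.810), and its highest value was in the male library, where summed lymphatic markers were also highest at 303 CPM against 189 to 267 in the other 4 libraries. Without that library its log2 fold change was −0.13. Without control replicate 1, the median over the 8 receptors was −0.30 and 0 genes were called.

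The contrast between M46 and the libraries labelled HC, MC minus its control against HC minus its control, was positive for 9 of the 10 receptors with a median of 1.78 on the log2 scale. It was 2.69 ± 0.29 (SE) for P2ry13, 2.59 ± 0.29 for Gpr34 and 1.87 ± 0.34 for P2ry12. Timd4 at 2.66 ± 0.66 and Folr2 at 2.03 ± 0.53 had wider errors. P2ry14 was negative (−0.52 ± 0.44). Without control replicate 1 of HC the median over the 10 receptors was 1.29. P2ry13, Gpr34 and P2ry12, and 2.18% of 14884 genes, were past the call threshold, but 0 receptors were under the replicate block or without HC replicate 2. The list was chosen on this contrast, so nothing is read from these counts, and the direction rests on the HC label, which Map4k1 goes against. Table, kit, age and control genotype also differed between the 2 experiments.

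**Figure D2:**
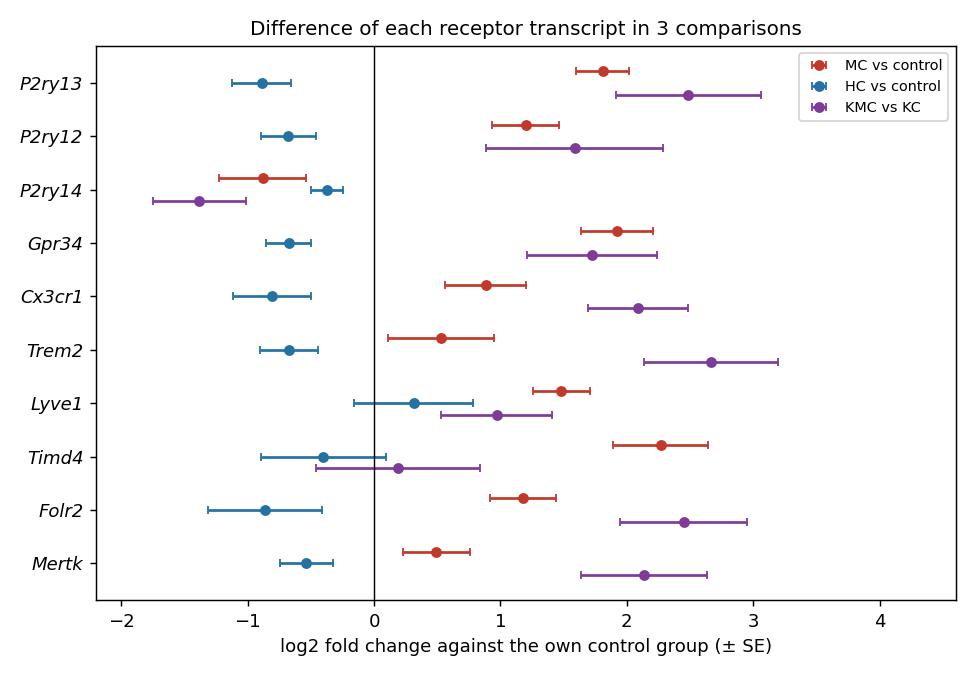
The plot gives the log2 fold change with its SE for each receptor in MC (red), HC (blue) and KMC (purple) against the own control group. MC and KMC values lay right of 0 for every receptor but P2ry14, with Timd4 at 0.19 in KMC, and HC values lay left of 0 for every receptor but Lyve1.

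In the KMC samples 9 of the 10 receptors were on average higher than in KC, with a median log2 fold change of 1.91 beside 0.03 over the 15733 genes tested. No receptor was called by edgeR, where 3 genes were (0.0191%), all of them sex-linked (Xist, Ddx3y and Kdm5d), and the smallest adjusted p among the receptors was 0.0796. At an unadjusted p under 0.05, 6 receptors were higher and 1 lower, against 16.1% and 9.48% of all genes. Groups did not overlap for 8 higher and 1 lower receptors, where 34.4% and 30.9% of all genes did not overlap in groups of this size. DESeq2 called 6 higher and 1 lower, at a background of 13.7%.

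P2ry13 was at 3.12 and 4.39 CPM in KMC and 0.408 and 0.889 in KC, a log2 fold change of 2.49 ± 0.57 (edgeR adjusted p = 0.0839, DESeq2 adjusted p = 0.00405). Gpr34 was at 4.42 and 5.95 CPM against 0.952 and 2.13 (1.72 ± 0.52, edgeR adjusted p = 0.120). P2ry12 was at 2.43 and 4.92 CPM against 0.476 and 1.90 (1.59 ± 0.70, edgeR adjusted p = 0.204). All were above KC in both libraries, but KC replicate 1 had only 6 counts of P2ry13, 7 of P2ry12 and 14 of Gpr34. P2ry14 was again on the other side on the TMM scale, at 12.9 and 7.62 CPM in KMC and 23.9 and 29.4 in KC (−1.38 ± 0.37, edgeR adjusted p = 0.104, DESeq2 adjusted p = 0.0177). Scaled by total counts alone, per kilobase of exon, its groups overlapped, at 1.45 and 1.49 in KMC and 1.05 and 2.03 in KC. Its lower level in KMC therefore depends on the scaling.

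The other 6 receptors had log2 fold changes from 0.19 to 2.67. Trem2 was at 8.59 and 23.9 CPM against 2.65 and 2.48 (2.67 ± 0.53), Folr2 at 3.51 and 5.17 against 0.680 and 0.889 (2.45 ± 0.50), and Cx3cr1 at 12.3 and 21.6 against 3.81 and 4.14 (2.09 ± 0.39). All 3 had an edgeR adjusted p of 0.0796. Mertk was at 9.13 and 22.7 CPM against 3.06 and 4.18 (2.13 ± 0.50, edgeR adjusted p = 0.0877). Lyve1 was at 8.27 and 18.9 CPM against 6.87 and 7.04 (0.97 ± 0.44, edgeR adjusted p = 0.213), the KMC replicates differing more from each other than the lower replicate did from KC. Lymphatic markers summed to 48.1 and 43.1 CPM in KMC against 17.6 and 23.1 in KC, without overlap. All 6 were higher (median log2 fold change 0.79), with 0 called by edgeR and 1 by DESeq2. The part of lymphatic cells in Lyve1 was not tested. Timd4 overlapped, at 2.26 and 1.13 CPM against 0.816 and 2.09 (0.19 ± 0.65, edgeR adjusted p = 0.877).

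KMC replicate 2 stood apart, with 3626 CPM of pan-macrophage genes against 1156 in replicate 1 and 356 and 419 in KC. The median log2 fold change over the receptors was 2.20 without replicate 1 and 1.42 without replicate 2. Acinar genes ran the other way, and 31 of 34 tested were lower without overlap. Markers of several other cell types were higher together with the receptors, with no overlap of their summed levels. Fibroblast markers summed to 2119 and 6203 CPM in KMC against 424 and 883 in KC (7 of 7 tested higher), dendritic cell markers to 35.6 and 70.3 against 12.3 and 13.5 (8 of 9), neutrophil markers to 21.7 and 40.4 against 1.84 and 7.0 (8 of 8), and T and NK cell markers to between 13.3 and 14.8 against 2.99 to 3.71 (11 of 11). Adipocyte markers went the other way, at 38.9 and 24.9 CPM summed against 34.4 and 95.3 (5 of 5 tested lower). Endothelial sums overlapped, at 131 and 176 CPM against 136 and 137. None of the genes in these lists was called by edgeR. DESeq2 called 6 of 7 fibroblast, 7 of 9 dendritic cell, 5 of 8 neutrophil and 3 of 11 T and NK cell genes higher. It called 32 of 34 acinar genes lower and 0 adipocyte or endothelial genes, at a background of 13.7%. The part of these cells in the receptor values was not tested. Scaled by library size alone, the median over all genes became 1.47 and that of the receptors 3.38, 8 of them called. On that scale 4715 of 15733 genes were called, 4695 of them higher.

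Relative to macrophage RNA most of these differences shrank. The pan-macrophage list (17 genes, among them Csf1r, Adgre1 and C1qa) had 16 of 16 tested genes higher in MC (median log2 fold change 0.87), 0 of 17 higher in HC (−0.86) and 17 of 17 higher in KMC (2.61). In each experiment the macrophage genes thus lay on the same side as most receptors. DESeq2 called 3 of them higher in MC, 2 lower in HC and 17 higher in KMC, at backgrounds of 3.26%, 2.54% and 13.7%. Clec4f, a Kupffer cell gene, had 0 counts in every library of the HC table, which allows up to 3 counts per library. When libraries were scaled to the summed counts of this list, which moved the median over all genes to −0.81 in MC, 0.74 in HC and −2.16 in KMC, the median of the tested receptors became 0.33 in MC, 0.16 in HC and −0.52 in KMC, so that the sign turned in the latter 2. No receptor was called in any of the 3 comparisons on this scale.

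**Figure D3:**
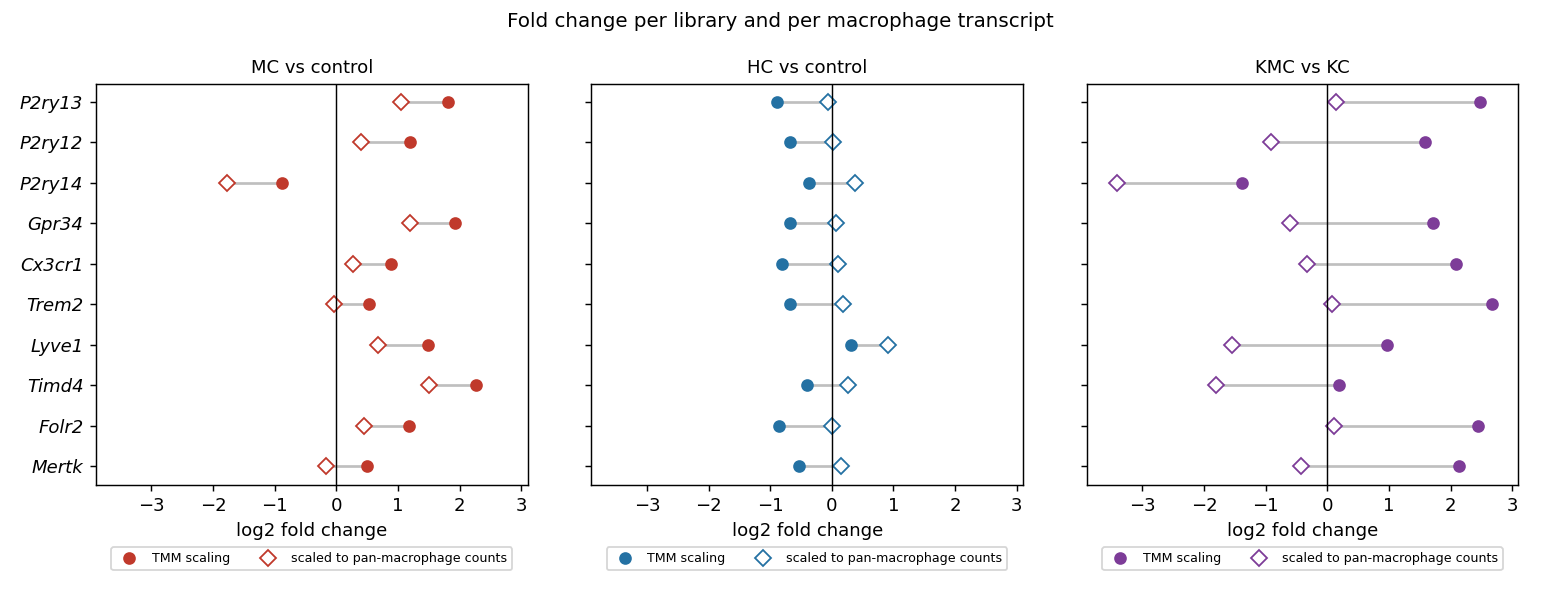
For each receptor the log2 fold change is plotted with TMM scaling (filled circles) and scaled to the summed pan-macrophage counts (open diamonds). In HC the diamonds gathered near 0 apart from Lyve1 at 0.91, in MC Timd4, Gpr34 and P2ry13 stayed right of 1, and P2ry14 moved to −1.77 in MC and −3.40 in KMC.

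P2ry13 made up 2.44, 2.36 and 1.77 counts per 1000 pan-macrophage counts in MC and 1.15, 0.589 and 1.54 in control, without overlap but with a narrow gap. Its macrophage-scaled log2 fold change was 1.05 ± 0.52. In HC its share was 2.83, 2.57 and 2.04 against 2.52 and 2.67, a full overlap (−0.06 ± 0.50). Gpr34 was at 1.47, 1.33 and 0.752 per 1000 in MC and 0.611, 0.250 and 0.772 in control, so that MC replicate 3 fell among the controls (1.2 ± 0.57). P2ry13 and Gpr34 chose the list through these libraries, so their values on this scale are a description. The share of all genes without overlap on this scale was not computed. Timd4 had a macrophage-scaled log2 fold change of 1.5 ± 0.52 in MC (edgeR adjusted p = 0.144), with 5.03, 2.52 and 1.54 per 1000 against 0.955, 0.464 and 1.96. Its groups overlapped, as MC replicate 3 lay below control replicate 3.

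P2ry14 lay further from 0 on this scale in MC and KMC, as did Lyve1 in HC (0.91) and KMC (−1.55) and Timd4 in KMC (−1.81). P2ry14 made up 56.9 and 82.6 counts per 1000 pan-macrophage counts in KC but 11.1 and 2.10 in KMC, and 46.3, 12.6 and 77.5 in the MC controls but 19.6, 13.5 and 6.71 in MC. In the HC experiment, where acinar genes took the smallest share, it lay between 2.88 and 5.85 in all 5 libraries. The 4 libraries with the most P2ry14 per pan-macrophage count had the largest share of acinar counts and also the smallest share of pan-macrophage counts. The latter was 0.0204% to 0.0767%, against 0.128% or more in the others. The ratio divides by these counts, so its order cannot tell which cells P2ry14 came from. The part of other cells in its counts was not tested. Its macrophage-scaled log2 fold change was −1.77 ± 0.53 in MC (edgeR adjusted p = 0.0572) and −3.40 ± 1.21 in KMC (edgeR adjusted p = 0.108). Its host gene Med12l was low, at 1.55 CPM in MC against 1.62 in control (log2 fold change −0.08) and 1.56 in KMC against 0.615 in KC (1.3, edgeR adjusted p = 0.238, turning to −0.93 on the macrophage scale).

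**Figure D4:**
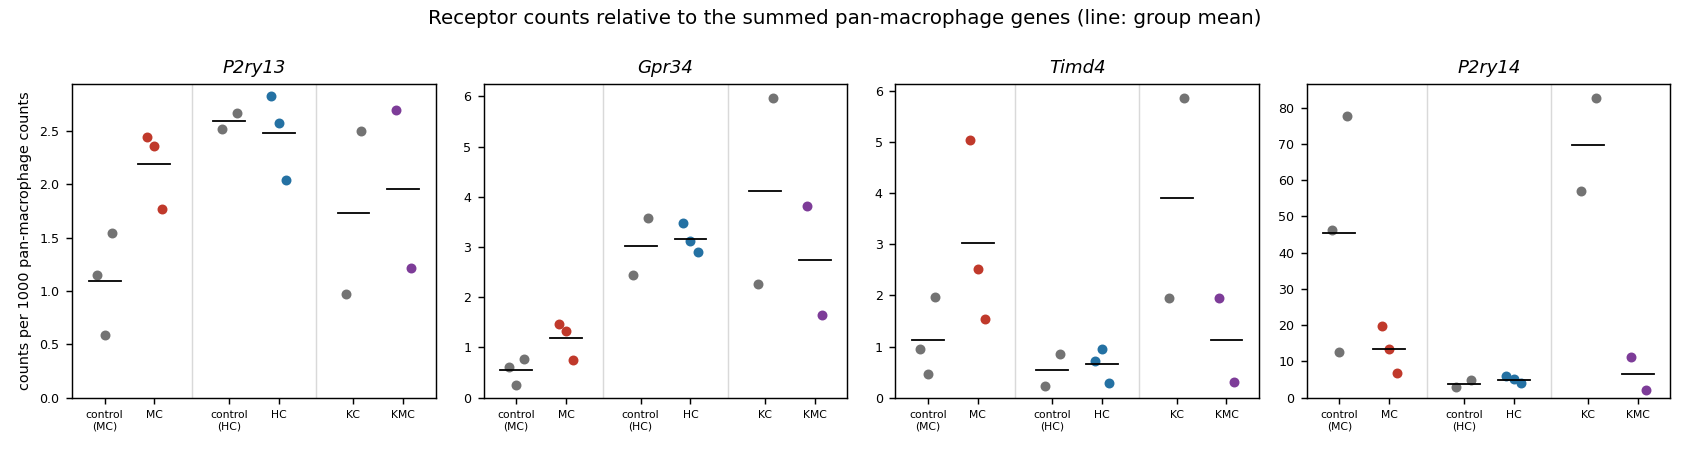
The panels plot counts of P2ry13, Gpr34, Timd4 and P2ry14 per 1000 summed pan-macrophage counts in each library (points) with group means (lines). P2ry13 did not overlap between MC and control but did between HC and control, a description because P2ry13 helped to choose the list. P2ry14 was at 56.9 and 82.6 in KC but 11.1 and 2.10 in KMC.

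Per kilobase of exon, the order of the receptors changed between groups. Lyve1 led in MC at 9.25 ± 1.35 RPKM (SD, n = 3). It had the highest mean in HC at 22.9 ± 12.4, a spread that reached Cx3cr1 at 10.8 ± 1.19. In KMC (n = 2) Lyve1 at 8.79 ± 7.45 did not differ beyond its spread from Mertk (6.99 ± 6.19), Cx3cr1 (6.88 ± 4.95) and Trem2 (6.31 ± 5.87). In the HC controls Cx3cr1 (19.1 ± 9.83) and Lyve1 (18.8 ± 4.39) were level, and in KC P2ry14 (1.54 ± 0.69) and Lyve1 (1.49 ± 0.49) were. In the MC controls P2ry14 (2.84 ± 0.60), Lyve1 (2.65 ± 0.19) and Trem2 (2.38 ± 1.89) did not differ beyond their spread. Gpr34 came last in MC (0.982 ± 0.145) and in its control (0.205 ± 0.033), but in the middle in HC (3.63 ± 0.46), close to Trem2 at 3.85 ± 0.31. Timd4 had the lowest mean in HC (0.68 ± 0.28), in its control and in KMC (1.21 ± 0.12).

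Ligands, partners and enzymes that serve these receptors were measured as a list of 25 genes. In MC 18 of 23 tested were higher and 5 lower, with 0 called by edgeR and 1 higher by DESeq2. Apoe, a ligand of TREM2, was at 388 CPM against 239 (0.70 ± 0.28, edgeR adjusted p = 0.317), Gas6, a ligand of MERTK, at 155 against 92.7 (0.74 ± 0.21, edgeR adjusted p = 0.204), and Entpd1, which breaks down ATP and ADP, at 71.3 against 79.7. In HC 8 of 24 were higher and 16 lower, and the single call was Nt5e, the enzyme that makes adenosine from AMP. Nt5e rose from 65.9 and 67.8 CPM in control to 135 to 174 in HC (1.24 ± 0.14, edgeR adjusted p = 0.0390), while Entpd1 was at 49.9 against 83.3 (−0.74 ± 0.18, edgeR adjusted p = 0.145) and Apoe at 1822 against 3032 (−0.73 ± 0.25, edgeR adjusted p = 0.245). The call of Nt5e was lost without HC replicate 2 or without either control, where 0 genes were called, and without HC replicate 3, the male library, with a log2 fold change of 1.17 to 1.32 over these fits. In the fit of 9 libraries the call of Nt5e was lost too (log2 fold change 1.24, edgeR adjusted p = 0.806). Scaled to the pan-macrophage list Nt5e was 2.0 and called, while Entpd1 and Apoe turned to 0.0857 and 0.0497. Cx3cl1, the ligand of CX3CR1, named after its values were seen, was at 111 CPM in HC against 72.3 (0.61 ± 0.13, edgeR adjusted p = 0.0974), opposite in sign to its receptor.

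In KMC 20 of 24 partners were higher and 4 lower with 0 called by edgeR and 13 higher by DESeq2. Apoe was at 1303 CPM against 252 (2.37 ± 0.76, edgeR adjusted p = 0.132), Axl, a relative of MERTK, at 95.1 against 23.9 (1.99 ± 0.46, edgeR adjusted p = 0.0858) and Gas6 at 148 against 66.2 (1.16 ± 0.41, edgeR adjusted p = 0.150). Tyrobp, the signalling partner of TREM2, named after its values were seen, was at 52.8 against 9.16 CPM (2.53 ± 0.51, edgeR adjusted p = 0.0796). Scaled to the pan-macrophage list, all of these turned lower, from −0.0190 for Tyrobp to −1.01 for Gas6.

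Other nucleotide, adenosine and related receptors (19 genes) were mostly on the side of the macrophage genes, with 14 of 15 higher in MC, 13 of 17 lower in HC and 13 of 16 higher in KMC, and none called by edgeR. DESeq2 called 3 higher in MC, 0 in HC, and 5 higher and 1 lower in KMC. Abundant members lay close to control in MC, where P2rx4 was at 54.1 CPM against 50.1 and P2rx1 at 104 against 128. In KMC P2ry6, a UDP receptor, was at 19.0 CPM against 3.52 (2.44 ± 0.54, edgeR adjusted p = 0.0822), whereas P2rx1, an ATP-gated channel, was at 39.7 against 157 (−1.98 ± 0.62, edgeR adjusted p = 0.127), the same direction as P2ry14. Other resident macrophage genes, among them Selenop, Stab1 and Mrc1, were higher in 22 of 23 cases in MC, lower in 21 of 24 in HC and higher in 22 of 24 in KMC, none of them called by edgeR. DESeq2 called 6 of these higher in MC, 2 lower in HC and 13 higher in KMC. Their summed level overlapped in KMC, at 1667 and 1860 CPM against 2572 and 1443 in KC. It overlapped in MC as well (1663 to 2422 against 1238 to 1974) but not in HC (2524 to 2987 against 3473 and 3285). Mrc1, which encodes CD206, was at 50.1 against 26.3 CPM in MC, 128 against 235 in HC and 119 against 15.7 in KMC.

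Across the 15 libraries, with log2 values centred on the control mean of each experiment, P2ry13 and Gpr34 were each the gene most like the other among 13328 genes (Pearson's r = 0.986). Both were chosen for a like difference in the MC and HC libraries, which are 11 of the 15, so their likeness partly restates the choice. Next to P2ry13 came Calhm6 (0.986), Cd40 (0.984), Cd86 (0.980) and Cd274 (0.978), and next to Gpr34 came Cd274 (0.973), Rasgrp1 (0.972), Btla (0.970) and Gbp5 (0.967). Libraries of a group share their condition and makeup, so these values mostly describe differences between groups. Of the other receptors Folr2 ranked 47 in likeness to P2ry13 (r = 0.955), P2ry12 ranked 113 (0.939) and Cx3cr1 192 (0.927), while Mertk ranked 1140 and Trem2 1193. Lyve1 (r = 0.636) and Timd4 (0.575) followed it loosely, and P2ry14 ran opposite (−0.674). Trem2, Cx3cr1 and Mertk were close to each other (0.912 to 0.964).

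**Figure D5:**
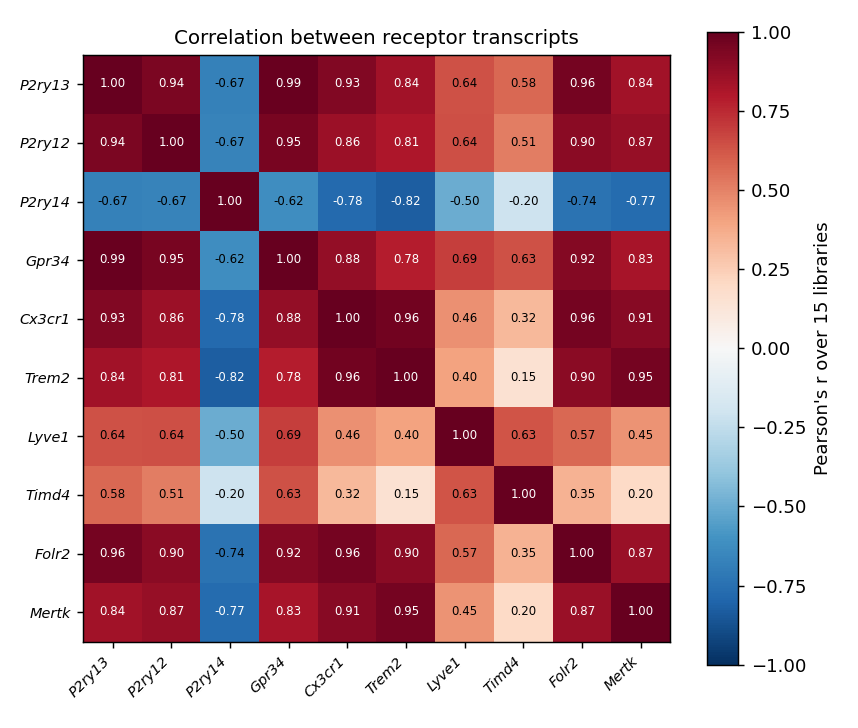
The grid gives Pearson's r between each pair of receptors over 15 libraries, on log2 values centred on the control mean of the experiment (red positive, blue negative). P2ry14 was negative with all 9 others, Timd4 and Lyve1 were looser than the rest, and P2ry13 with Gpr34 had the highest value at 0.99.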

How the data were processed

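Total RNA of 15 libraries, each pooled from 3 mice, was sequenced by the authors, aligned with STAR to GRCm38 and assigned to GENCODE genes. The authors deposited raw counts per gene, without normalization, in 3 tables. HTSeq 0.6.1 and STAR 2.6.1a are named in the submitters' processing notes, and the strand setting of the counting is not given in the sources used here. The authors also deposited a comparison of MC with control, which was not used. Of the 49585 identifiers in the HC and KMC tables, 49326 are in the GENCODE vM21 annotation used here for positions and names, and of the 15175 in the MC table, 15164 are. The selection behind the shorter MC table is not given in the sources used here. Each line had a gene identifier.

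Groups came from the labels. Low genes were removed by filterByExpr and libraries scaled by TMM for each pair of groups, which was compared in edgeR 4.0.16 (quasi-likelihood test, glmQLFit and glmQLFTest) under R 4.3.3, with Benjamini-Hochberg adjustment over all genes tested. Genes were called where the adjusted p did not exceed 0.05 and the log2 fold change reached 1 in either direction. CPM values are TMM-scaled, and RPKM values are total-scaled CPM per kilobase of merged exons. The contrast between the MC and HC differences was fitted over the 4 groups of the MC and HC tables. Alternatives were DESeq2 1.42.0, 4 other scalings, other filters, a newer form of the edgeR fit, the replicate number as a block, a fit of 9 libraries, and leaving out each library. Likeness used log2 of CPM plus 0.5, centred on the controls of each experiment, over genes with a mean of at least 1 CPM. Identities between proteins were computed from the longest reading frames of GENCODE transcripts. The fits were first tested on simulated counts. Replicates of a group differed far beyond sampling noise (chi-square per gene of 39.5 to 463), and none was counted as a repeat. Depth was alike between libraries, so counting error was largest for receptors with few counts.

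The receptors, gene lists and tests were chosen with earlier results of these data known. From each list other than the receptors, the named genes are those called and up to 4 of the highest mean level, and others are marked. The allele that KMC and KC mice share is not reported here.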

Additional observations from a re-analysis of the deposited data

Results flagged for a closer look

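P2ry13, Gpr34 and P2ry12 stood out because the difference between MC and its control and that between the libraries labelled HC and theirs were unequal. On the log2 scale the first minus the second was 2.69 for P2ry13, 2.59 for Gpr34 and 1.87 for P2ry12. Each was higher in all 3 MC libraries than in all 3 controls, and lower in all 3 libraries labelled HC than in both controls. Of all genes tested, 10.9% were higher without overlap in MC and 16.1% lower without overlap in HC. The receptors were chosen on the contrast between M46 and HPK1, through P2ry13 and Gpr34, so the differences above are a description and carry no p. Passing the call threshold in the fit reported partly restates that choice, and nothing is read from it. With the replicate number as a block or without HC replicate 2, 0 receptors were past it. Without control replicate 1 of HC the median over the receptors was 1.29. Map4k1 goes against the HC label, on which the direction rests. Scaled to the pan-macrophage list, the differences were 1.12 ± 0.71, 1.14 ± 0.74 and 0.39 ± 0.71 (SE), which moved the median over all genes to −1.55.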

How the results depend on the processing

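Over the tested receptors the median kept its sign under every alternative except scaling to the pan-macrophage list, which gave 0.16 in HC and −0.52 in KMC, and 0.33 in MC and 0.28 for the M46 and HPK1 difference, where 1 receptor (P2ry14, lower) was called. On that scale the sign also turned for Trem2 (−0.0399) and Mertk (−0.18) in MC; for P2ry12 (0.0135), P2ry14 (0.37), Gpr34 (0.0739), Cx3cr1 (0.0939), Trem2 (0.17), Timd4 (0.27) and Mertk (0.15) in HC; for P2ry12 (−0.92), Gpr34 (−0.61), Cx3cr1 (−0.33), Lyve1 (−1.55), Timd4 (−1.81) and Mertk (−0.43) in KMC; and for Trem2 (−0.22), Lyve1 (−0.25) and Mertk (−0.33) in the difference. Library size alone gave medians of 1.31 in MC, 3.38 in KMC (8 receptors called) and 2.11 for the difference, and library size without the acinar list 2.32 in KMC (5 called) and 1.89 for the difference. Scaled by total counts, P2ry14 was level between KMC and KC, at 1.47 ± 0.03 and 1.54 ± 0.69 RPKM (SD, n = 2). DESeq2 called 4 receptors in MC, 7 in KMC and 6 in the difference, and the fit of 9 libraries 7 in KMC. All receptor calls in the difference in this section are on the contrast that chose the list, so nothing is read from them. Leaving out each library gave medians of 0.86 to 1.26 and 0 to 5 calls in MC, −0.67 to −0.30 and 0 calls in HC, 1.42 to 2.41 and 0 to 8 calls in KMC, and 1.29 to 1.99 and 0 to 8 calls in the difference, with 0 calls there without HC replicate 2 or without control replicate 1 of HC, and 8 without control replicate 2 of MC. Lyve1 in HC ranged from −0.13 (without HC replicate 3) to 0.68, Timd4 in HC from −0.87 to 0.30 (without control replicate 2), and Timd4 in KMC from −0.40 (without KMC replicate 1), with −0.32 without KC replicate 1, to 1.04. Of the other named genes, the macrophage scale turned Entpd1 (0.0857) and Apoe (0.0497) in HC and Apoe (−0.14), Axl (−0.48), Gas6 (−1.01), Tyrobp (−0.0190), P2ry6 (−0.18) and Med12l (−0.93) in KMC. Med12l in MC was 0.16 by library size alone and −0.23 to 0.28 without a library (0.0393 without MC replicate 3). The cause of these shifts was not tested.

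Counts over all genes varied more. In MC 0 genes were called, against 453 by DESeq2, 169 scaled to macrophages and 0 to 718 without a library. In HC 104 were called, against 49 by library size without acinar genes, 636 scaled to macrophages, 395 without a filter, 468 by DESeq2, 1 in the fit of 9 libraries and 0 to 379 without a library. In KMC 3 were called, against 4715 by library size alone (4695 higher), 1242 without acinar genes (1217 higher), 20 scaled to macrophages, 9 without a filter, 2159 by DESeq2, 3230 in the fit of 9 libraries and 0 to 2288 without a library. In the difference 325 were called (264 higher, 61 lower), against 98 by library size alone (93 higher), 208 without acinar genes, 7694 scaled to macrophages (141 higher), 1005 by DESeq2 and 0 to 1583 without a library.

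Whether replicate numbers pair the samples could not be decided. Same-numbered libraries had correlations of 0.08, 0.31 and −0.35 in MC, 0.21 and 0.20 in HC, and 0.10 in KMC. Values were centred on the group mean, so 2 libraries of a group are mirror images of each other. The 2 pairs in KMC therefore give the same number, and pairing is not excluded. With the number as a replicate block, 8 receptors and 2469 genes were called in KMC, 0 receptors and 408 genes in HC, 0 and 0 in MC, and 0 and 0 in the difference, and Lyve1 in HC, where a library is dropped, was −0.25. Counts as low as 6 for P2ry13, 7 for P2ry12 and 14 for Gpr34 in KC replicate 1 limit what depth can show there.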

Other observations

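Genes of monocytes and recruited macrophages lay on the same side as the resident-type receptors. In MC 10 of 12 were higher, in HC 10 of 12 lower and in KMC 12 of 12 higher, with 0 called by edgeR. DESeq2 called 3 higher in MC, 1 lower in HC and 9 higher in KMC. Ccr2, the receptor of monocyte recruitment, was at 63.3 CPM against 28.8 in MC (log2 fold change 1.13, edgeR adjusted p = 0.283) and 76.5 against 7.21 in KMC (3.40, edgeR adjusted p = 0.0796). Plac8 was an exception in HC, at 288 CPM against 144 (1.0, edgeR adjusted p = 0.0974), and was higher in MC as well, at 53.0 against 13.6 (1.96, edgeR adjusted p = 0.10).

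Platelet genes were higher in 3 of 3 tested in MC, 5 of 7 in HC and 5 of 5 in KMC, with 0 called by edgeR and 1 higher by DESeq2 in KMC. Pf4, a platelet chemokine, was at 17.7 CPM against 11.9 in MC, 17.5 against 13.4 in HC and 6.47 against 4.42 in KMC.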
